A study of Mus musculus with 10 samples.

Results

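The granzymes and perforin are the killing machinery stored in the granules of cytotoxic T cells, and their mRNAs were followed here in mouse CD8+ T cells that had or had not received sodium acetate (NaAc). The members were the genes named Gzma, Gzmb, Gzmc, Gzmd, Gzme, Gzmf, Gzmg, Gzmk, Gzmm and Prf1, taken by gene name from an expression table of 57825 genes. All 10 were listed in the table, which makes 9 granzymes and the perforin gene. After a filter on low values, 15710 genes were tested, and 9 of the 10 members were among them. Gzmk did not pass.

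The samples were bulk RNA sequencing libraries of CD8+ T cells from the spleen of female Balb/c mice of 7 to 8 weeks, with no genetic change given. The cells of both groups were activated with IL-2, anti-CD28 and plate-bound anti-CD3, and both groups were later co-cultured with 4T1, a mouse mammary carcinoma line of the same strain, for 48 h. In the group CD8+4T1+NaAc, 5 samples, the T cells were given 5 mM NaAc for 24 h after 12 h on anti-CD3, before they met the tumor cells. The group CD8+4T1, also 5 samples, had no NaAc. All samples carry the label day 3, and the RNA is described as coming from purified CD8+ T cells. The sources used here do not say how the T cells were separated from the tumor cells after the co-culture. No source says whether the replicates came from separate mice or cultures, so that every p-value here measures only the spread between these samples, which may be technical.

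Granzymes are serine proteases that are kept inactive in acidic granules on the proteoglycan serglycin. When a T cell meets its target the granules fuse with the cell surface, perforin forms pores in the target membrane, and the granzymes enter and cut proteins of the dying cell. Granzyme B and granzyme A are the best known of them, whereas granzymes C to G are rodent proteases encoded beside granzyme B, and far less is known of their substrates.

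The FPKM values were scaled to between 16306447 and 17443395 fragments per library in CD8+4T1 and to between 16503701 and 18853726 in CD8+4T1+NaAc. The listed genes held 95.5% to 97.9% of these fragments without NaAc and 89.8% to 92.1% with it. CD8+4T1+NaAc replicate 1 stood apart from its group, with 20233 listed genes above 0 against 24681 to 25088 in the other 4 samples, and CD8+4T1 replicate 1 less so, with 22291 against 23786 to 24054. Without CD8+4T1+NaAc replicate 1, 6965 genes passed in place of 5742 of the 15710 tested (5382 without CD8+4T1 replicate 1), and the same members passed, Gzma at 1.48, Gzmc at 2.23, Gzmd at 2.15, Gzme at 2.67 and Gzmm at -0.38 on the log2 scale by limma. Cd8a, which encodes a chain of the CD8 co-receptor, was at 78.6 ± 2.34 and 76.5 ± 4.37 FPKM (fragments scaled to transcript length and library depth, mean ± SD, n = 5 each), and Cd4 was at 0.541 ± 0.169 and 1.60 ± 0.186 FPKM. Of the other CD4 T cell genes, Zbtb7b was at 13.5 ± 0.602 and 12.4 ± 2.4 FPKM (limma adjusted p = 0.385). Foxp3, below the filter on low values, was at 0.2215 ± 0.0663 and 0.179 ± 0.102 FPKM. Cd40lg, past the filter only through the NaAc group, was at 0.489 ± 0.184 and 0.736 ± 0.207 FPKM. The 4 genes summed to 13.8 to 15.9 FPKM without NaAc and 12.4 to 18.4 with it. Of the 12 T cell genes, 6 fell with NaAc and none rose on the deposited scale, beside 19.0% and 17.6% of all genes tested, and with rescaling to the same FPKM total 4 fell and 3 rose, beside 8.83% and 31.2%, Cd8a among the 3. Among those that fell on both scales was Cd3d, which encodes a chain of the T cell receptor complex, at 86.5 ± 10.2 and 59.8 ± 8.22 FPKM without and with NaAc (-0.54 on the log2 scale, limma adjusted p = 0.00405). Of 11 natural killer cell genes, 7 stayed under 0.5 FPKM in every sample, Ncr1 and Klrb1c among them. Nearly all of that list's summed FPKM, 38.5 to 46.9 without NaAc and 40.3 to 54.3 with it, was Klrk1, at 40.7 ± 3.79 and 43.4 ± 5.18 FPKM, a receptor gene that activated CD8+ T cells also express. Klri2 and Tyrobp of the same list were below the filter on low values and not tested. Klri2 was at 0.248 ± 0.0437 and 0.686 ± 0.152 FPKM with no overlap of the groups, and Tyrobp, for a signaling adaptor of natural killer and myeloid cells, at 0.252 ± 0.208 and 0.725 ± 0.268 FPKM with overlap. The list of 18 epithelial and 4T1 genes was not level between the groups. Its summed FPKM spanned 10.7 to 23.2 without NaAc and 86.3 to 223.6 with it, led by Krt8, Lcn2, Krt18 and Fn1. Of its 10 tested genes, Krt7, Cldn3 and Sparc passed the filter on low values only through the NaAc group. Of the other 7, 5 were higher with NaAc by limma and none lower, where 17.6% of all genes were higher. Krt19, Krt5, Cldn4, Esrp1 and Grhl2 stayed under 0.5 FPKM in every sample. In bulk RNA, fewer cells of a type and less RNA per cell cannot be told apart.

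By limma on log2(FPKM + 0.1), with p-values adjusted by the Benjamini-Hochberg method over all genes tested, 5 of the 9 tested members differed between the groups at an adjusted p under 0.05. Among all genes tested the share was 36.5%. Gzma, Gzmc, Gzmd and Gzme rose with NaAc, where 17.6% of all genes rose, and each of the 4 rose by more than 1 on the log2 scale, which 4.87% of all genes did. Gzmm fell, as did 19.0% of all genes. The same 5 members were those whose groups did not overlap, a separation seen in 26.4% of all genes tested. The median log2 fold change of the 9 members was 0.14 and that of all genes was -0.02.

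**Figure D1:**
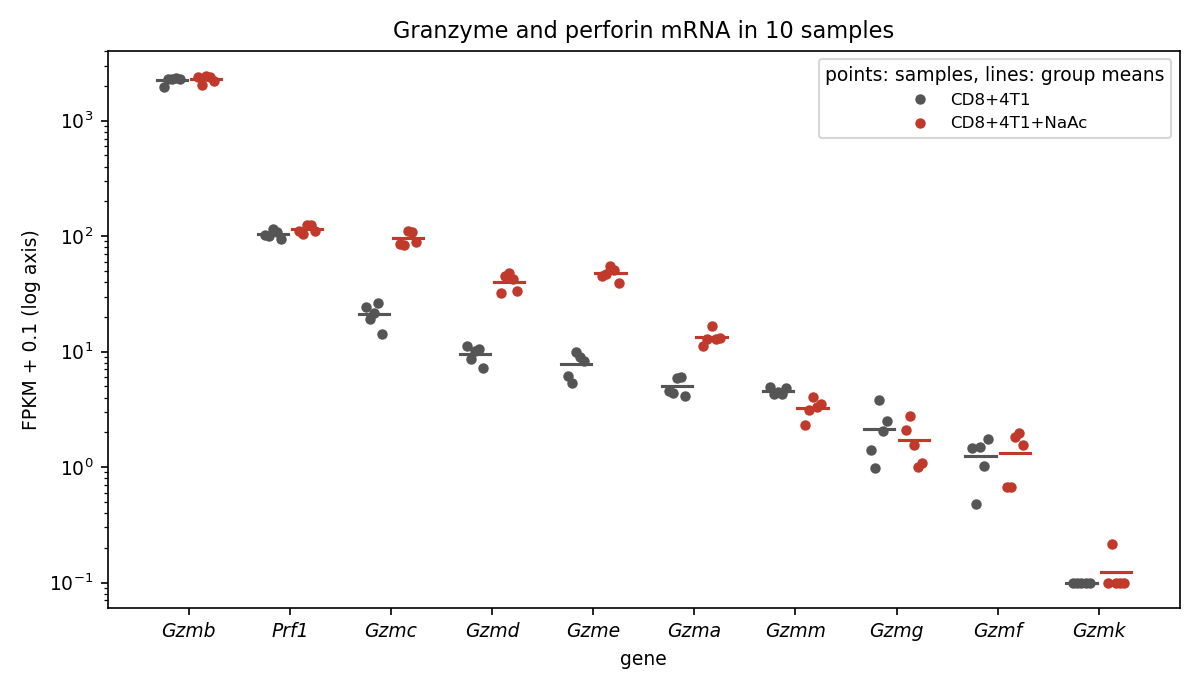
FPKM of the 10 members in each sample on a log axis, with 0.1 added so that zero can be drawn. Points are samples, lines are group means, grey is CD8+4T1 and red is CD8+4T1+NaAc. The groups of Gzmc, Gzmd, Gzme and Gzma stand apart, those of Gzmb and Prf1 overlap, and Gzmk sits at the floor in 9 of the 10 samples.

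Perforin and granzyme B were the most abundant mRNAs of the set. Prf1, which encodes the pore-forming protein and lies on chromosome 10 from 61133612 to 61140459 in the deposited table, was at 101.5, 99.8, 114.8, 108.1 and 94.9 FPKM in CD8+4T1 replicates 1 to 5, and at 109.8, 104.9, 124.1, 124.9 and 110.2 FPKM in CD8+4T1+NaAc. The NaAc samples lay toward the upper end, but the groups overlapped. Means were 103.8 ± 7.74 and 114.8 ± 9.11 FPKM (SD, n = 5 each), with a log2 fold change of 0.14 (SE 0.07, 95% interval -0.01 to 0.30, limma adjusted p = 0.130). A two-sided exact permutation test of the means gave p = 0.0794, where 5 against 5 can give no less than 0.00794.

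Gzmb encodes granzyme B, which cuts after aspartate and can activate caspases. It was at 1967, 2274, 2312, 2324 and 2282 FPKM without NaAc and at 2377, 2017, 2434, 2377 and 2219 FPKM with it. The groups overlapped over nearly their whole range, and CD8+4T1 replicate 1 was the lowest sample. Means of 2232 ± 149.4 and 2285 ± 169.8 FPKM gave a log2 fold change of 0.03 (SE 0.07, 95% interval -0.13 to 0.20, limma adjusted p = 0.755), so that a change in either direction of more than 0.20 lay outside the interval. Left without CD8+4T1 replicate 1, the fold change was -0.01. Among protein-coding genes ordered by FPKM, Gzmb held a rank from 5 to 7 in the samples without NaAc and from 4 to 6 with it. The number of Gzmb transcripts per Prf1 transcript, by FPKM, was between 19.4 and 24 without NaAc and between 19.0 and 21.7 with it, and the change in this ratio did not pass (Gzmb minus Prf1 -0.11 on the log2 scale, exact permutation test, adjusted p = 0.163 over 36 pairs of members).

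The calls of these abundant genes depended on what the samples were scaled to. When every sample was rescaled to the same FPKM total, or to its T cell marker genes, the median of all genes moved to 0.155 and 0.150. Gzmb then had a log2 fold change of 0.21 under both scalings (limma adjusted p = 0.0302 and 0.0401) and Prf1 one of 0.32 under both (limma adjusted p = 0.0041 and 0.0033). Relative to the median of all genes the shifts are close to those on the deposited scale.

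The members that moved most were 3 neighbors of Gzmb, namely Gzmc, Gzmd and Gzme. In the deposited table the cluster spans 144.6 kb of chromosome 14 in the order Gzme, Gzmd, Gzmg, Gzmn, Gzmf, Gzmc and Gzmb, all on the minus strand (positions as the table lists them, with no genome build given in the sources used here). Gzmn, a cluster gene outside the member list, had 1 fragment in 1 sample.

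The promoters are shown because the 5 genes from Gzmc to Gzmg have closely similar upstream sequence while only some of them moved. All 10 members had an entry in the RefSeq promoter table (GRCm38.p6). Each sequence below is the 250 bases before the transcription start, 5′ to 3′ on the minus strand of that build, at chr14:56234658-56234907 for Gzmc, chr14:56132594-56132843 for Gzmd, chr14:56120626-56120875 for Gzme, chr14:56211408-56211657 for Gzmf, chr14:56159580-56159829 for Gzmg and chr14:56262335-56262584 for Gzmb. Capitals mark TGTGGT, the core of RUNX sites, on either strand (ACCACA on the other), TGACGTCA, the cyclic AMP response element, or its form with 1 mismatch, and in Gzmb also TGANTCA, the AP-1 site. The 3 genes that rose come first.
Gzmc: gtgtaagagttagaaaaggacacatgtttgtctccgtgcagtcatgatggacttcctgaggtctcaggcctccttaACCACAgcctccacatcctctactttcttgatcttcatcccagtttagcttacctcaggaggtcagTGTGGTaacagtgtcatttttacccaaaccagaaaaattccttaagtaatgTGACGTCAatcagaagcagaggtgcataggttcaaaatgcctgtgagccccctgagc
Gzmd: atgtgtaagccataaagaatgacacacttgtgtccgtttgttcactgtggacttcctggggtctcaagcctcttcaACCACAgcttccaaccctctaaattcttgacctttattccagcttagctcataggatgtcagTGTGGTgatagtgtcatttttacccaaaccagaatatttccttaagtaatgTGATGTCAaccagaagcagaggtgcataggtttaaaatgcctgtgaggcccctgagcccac
Gzme: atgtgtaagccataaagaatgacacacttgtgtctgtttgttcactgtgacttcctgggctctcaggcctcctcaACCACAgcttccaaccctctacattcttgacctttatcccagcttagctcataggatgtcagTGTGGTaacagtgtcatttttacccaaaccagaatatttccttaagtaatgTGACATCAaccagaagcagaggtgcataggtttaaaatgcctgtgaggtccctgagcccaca
The next pair did not pass the test, and Gzmb follows.
Gzmf: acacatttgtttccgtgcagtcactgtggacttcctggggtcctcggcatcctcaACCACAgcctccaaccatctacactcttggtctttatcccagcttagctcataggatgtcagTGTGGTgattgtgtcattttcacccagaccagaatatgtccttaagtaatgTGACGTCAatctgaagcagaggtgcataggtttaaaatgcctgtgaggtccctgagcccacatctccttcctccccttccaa
Gzmg: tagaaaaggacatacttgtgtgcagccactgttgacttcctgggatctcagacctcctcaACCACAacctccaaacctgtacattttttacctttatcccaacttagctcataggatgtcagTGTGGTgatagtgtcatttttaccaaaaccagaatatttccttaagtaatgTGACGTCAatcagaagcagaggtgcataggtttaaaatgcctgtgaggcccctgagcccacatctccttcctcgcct
Gzmb: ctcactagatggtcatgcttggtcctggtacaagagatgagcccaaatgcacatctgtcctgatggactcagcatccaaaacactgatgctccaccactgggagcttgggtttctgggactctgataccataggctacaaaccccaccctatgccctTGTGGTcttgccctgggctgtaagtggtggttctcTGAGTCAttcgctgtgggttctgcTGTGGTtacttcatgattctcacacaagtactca

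TGACGTCA stood whole in Gzmc, Gzmf and Gzmg, whereas Gzmd held it with the change C4T and Gzme with G5A, counted from 1 at the 5′ end of TGACGTCA. Over all 32851 start sites of the table, 1.55% held TGACGTCA in their window and 10.6% held it with at most 1 mismatch. TGTGGT was found at 2 places in each of the 6 promoters and in 14% of all windows, and TGANTCA in 6.75% of them. Matches of TGACGTCA and of TGTGGT occurred both among the genes that rose and among those that did not pass. Of the 6 promoters only that of Gzmb, which did not pass, held TGANTCA. The Gzmd and Gzme promoters were 94.8% identical, Gzmc was 80.5% identical to Gzmd and 80.9% to Gzme, and Gzmf was 82.2% identical to Gzmg. Across the genes that rose and those that did not pass, identities were 79.4% for Gzme and Gzmg, 78.6% for Gzmd and Gzmg, 74.9% for Gzme and Gzmf, 74.5% for Gzmd and Gzmf, 73.7% for Gzmc and Gzmg and 70.2% for Gzmc and Gzmf. Gzmb was 44.1% to 47.5% identical to the other 5, and Gzma, from another chromosome, was 45.4% identical to Gzmb. The longest run common to Gzmc, Gzmd, Gzme, Gzmf and Gzmg, gaagcagaggtgcataggtt, occurred at 5 start sites in the table. A match is a description of letters and not a site of binding.

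Gzmc encodes granzyme C, a chymotrypsin-like protease of activated mouse killer cells. Its FPKM was 24.3, 19.1, 21.5, 26.3 and 14.2 in CD8+4T1 and 86.2, 83.4, 109.9, 109.5 and 88.8 in CD8+4T1+NaAc. Every NaAc sample was more than 3 times the highest sample without NaAc. From 21.1 ± 4.72 FPKM it went to 95.6 ± 13 FPKM (SD, n = 5 each), 4.53-fold, with a log2 fold change of 2.20 (SE 0.16, 95% interval 1.85 to 2.54, limma adjusted p = 1.41e-05). With NaAc the Gzmc mRNA came near the level of Prf1, and the ranges of both genes overlapped there, which they did not without NaAc.

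Gzmd, for granzyme D, was at 11.1, 8.44, 9.92, 10.5 and 7.17 FPKM without NaAc and at 32.2, 45.2, 47.6, 42.1 and 33.5 FPKM with NaAc. The groups were far apart. The mean went from 9.42 ± 1.59 to 40.1 ± 6.94 FPKM, 4.26-fold, and the log2 fold change was 2.08 (SE 0.14, 95% interval 1.76 to 2.40, limma adjusted p = 1.20e-05).

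Gzme, for granzyme E, was at 6.08, 5.19, 9.84, 8.81 and 8.27 FPKM in CD8+4T1 and at 45.0, 47.2, 55.2, 50.6 and 39.5 FPKM in CD8+4T1+NaAc. This was the steepest rise among the members, from 7.64 ± 1.94 to 47.5 ± 5.89 FPKM or 6.22-fold. The log2 fold change was 2.65 (SE 0.17, 95% interval 2.28 to 3.02, limma adjusted p = 9.32e-06). It stood on 83 to 147 fragments per library without NaAc and on 601 to 834 with it. Of all genes tested, 1.88% rose by more than 2 on the log2 scale at an adjusted p under 0.05, and Gzmc, Gzmd and Gzme were among these 295 genes. Among protein-coding genes ordered by FPKM, Gzmc moved from ranks between 1977 and 3486 to ranks between 275 and 414, and Gzme from ranks between 4677 and 6800 to ranks between 713 and 1103.

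The ratio of every pair of tested members was compared between the groups. Of the 36 pairs among the 9 tested members, 26 changed their ratio with NaAc by an exact permutation test, two-sided, adjusted over the 36 pairs. The pairs share their genes, so this count is no result apart from the calls of the single members. The share among pairs of all genes was not computed. The log2 ratio of Gzmb to Gzmc fell by 2.16 (SE 0.18), that of Gzmb to Gzmd fell by 2.05 (SE 0.19) and that of Gzmb to Gzme fell by 2.62 (SE 0.17), each with adjusted p = 0.0119, which was the smallest of the 36. The change in the ratio of Gzmc to Gzmd did not pass (0.12, SE 0.11, exact permutation test, adjusted p = 0.381), nor did that of Gzmc to Gzme (-0.45, SE 0.24, exact permutation test, adjusted p = 0.159), although the latter passed without CD8+4T1 replicate 5 (-0.63, exact permutation test, adjusted p = 0.022). The log2 ratio of Gzmd to Gzme fell by 0.57 (SE 0.21, exact permutation test, adjusted p = 0.0229), but the call was lost when any of the 5 NaAc samples was left out (-0.62 to -0.51, highest adjusted p 0.0879) and when replicate 1 of both groups was (-0.38, adjusted p = 0.0791).

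**Figure D2:**
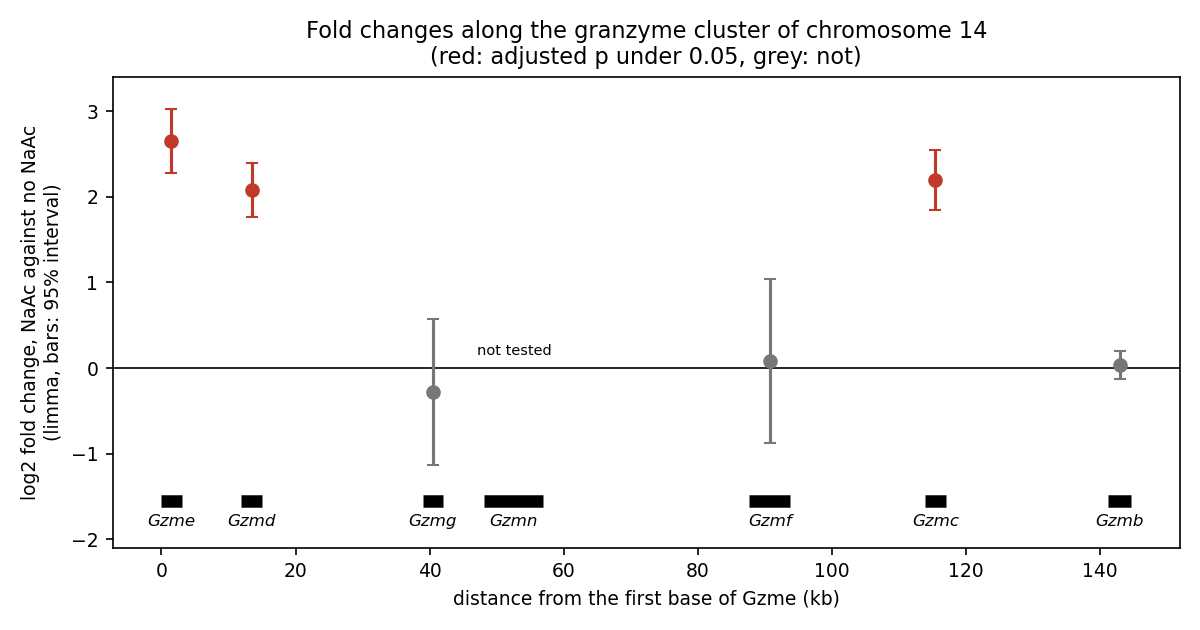
Log2 fold change with its 95% interval for the granzyme genes of the chromosome 14 cluster, placed by distance from the first base of Gzme in the deposited table, with black bars for the genes. Gzme, Gzmd and Gzmc (red, adjusted p under 0.05) lie between 2.08 and 2.65, and Gzmg, Gzmf and Gzmb (grey) have intervals that include 0.

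Gzmf and Gzmg, which lie between Gzmd and Gzmc and encode granzymes F and G, were low in both groups. Gzmf was at 1.37, 0.374, 1.40, 0.925 and 1.65 FPKM without NaAc and at 0.573, 0.577, 1.71, 1.87 and 1.44 FPKM with it. Gzmg was at 1.32, 0.883, 3.71, 1.94 and 2.40 FPKM and at 1.99, 2.68, 1.47, 0.911 and 0.994 FPKM. In both genes the groups overlapped widely. Their log2 fold changes were 0.08 (SE 0.43, 95% interval -0.87 to 1.04, limma adjusted p = 0.898) and -0.28 (SE 0.39, 95% interval -1.14 to 0.57, limma adjusted p = 0.603). They stood on 6 to 29 and on 14 to 55 fragments per library, and the spread between samples was wide. A change as large as that of Gzme lay outside both intervals, and the differences themselves passed: Gzme rose more than Gzmg by 2.94 and more than Gzmf by 2.57 on the log2 scale (exact permutation test, adjusted p = 0.0119 each).

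Because these genes are near copies, reads can be assigned to the wrong member. The Gzmd and Gzme transcripts were 90.0% identical over their length and Gzmf and Gzmg 87.5%. In the GENCODE M21 transcripts, 21.9% of the 50-base windows of Gzmd, 20.6% of those of Gzme and 4.14% of those of Gzmc also occur in a transcript of another gene, against none of Gzma, Gzmb, Gzmm and Prf1. For Gzmf the share was 19.4%, most often with the predicted gene Gm4022. For Gzmg it was 19.8%. With 100-base windows the share was 0.231% for Gzmd, 0.247% for Gzmg, 6.71% for Gzmf and 0 for Gzme and Gzmc. The read length and the counting of reads with several matches are not given in the sources used here, so the values of Gzmd, Gzme, Gzmf and Gzmg carry this uncertainty. Gzmc, the gene of the 3 with the smallest such share at 50 bases, had a log2 fold change of 2.20.

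Gzma encodes granzyme A, a protease that cuts after basic residues, and lies on chromosome 13 from 113230359 to 113237515 in the deposited table. It was at 4.46, 4.27, 5.85, 5.91 and 4.04 FPKM in CD8+4T1 and at 11, 12.7, 16.6, 12.9 and 13 FPKM in CD8+4T1+NaAc. Every NaAc sample lay above every sample without NaAc. The mean went from 4.91 ± 0.903 to 13.2 ± 2.02 FPKM (SD, n = 5 each), 2.70-fold, with a log2 fold change of 1.42 (SE 0.13, 95% interval 1.12 to 1.72, limma adjusted p = 3.79e-05). The log2 ratio of Gzma to Gzme fell by 1.23 and that of Gzma to Gzmb rose by 1.39 (exact permutation test, adjusted p = 0.0119 each).

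Gzmk, the neighbor of Gzma that encodes another protease cutting after basic residues, was listed at 0 in all samples but CD8+4T1+NaAc replicate 2, which had 3 fragments (0.115 FPKM). A count of 0 allows up to 3 fragments, which corresponds to 0.124 to 0.133 FPKM in the CD8+4T1 libraries, for counting error only. No fold change is given. Gzma stood on 67 to 275 fragments per library.

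Gzmm, at chromosome 10 from 79524854 to 79531095 in the deposited table, encodes granzyme M, which cuts after methionine and leucine. It was at 4.84, 4.21, 4.37, 4.16 and 4.69 FPKM without NaAc and at 2.22, 3.03, 3.95, 3.21 and 3.44 FPKM with NaAc. Every NaAc sample was lower than every sample without it, by a narrow margin between 3.95 and 4.16 FPKM. The mean went from 4.46 ± 0.299 to 3.17 ± 0.632 FPKM, a ratio of 0.712, and the log2 fold change was -0.50 (SE 0.13, 95% interval -0.79 to -0.21, limma adjusted p = 0.0124). With the samples rescaled to the same FPKM total or to T cell markers the fold change was -0.33 and did not pass (limma adjusted p = 0.0723 and 0.0560). The log2 ratio of Gzmb to Gzmm rose by 0.53 (exact permutation test, adjusted p = 0.0119). This ratio is taken within a sample, so rescaling can change it only through the added 0.1 (0.54 under both scalings). It is therefore no check of the Gzmm call. A ratio within a sample does not show which of the genes changed.

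The mix of granzyme mRNAs changed with these shifts. Summed over the 9 granzymes, FPKM ranged from 2020 to 2382 without NaAc and from 2212 to 2671 with it. Gzmb made up 97.8 ± 0.377% of the sum in CD8+4T1 and 91.9 ± 0.827% in CD8+4T1+NaAc (exact permutation test, two-sided, adjusted p = 0.0106 over the shares). Gzmc, Gzmd and Gzme together rose from between 1.28% and 2.05% to between 6.39% and 7.97%. There were between 47.5 and 76.9 Gzmb transcripts for each of theirs without NaAc and between 11.4 and 14.6 with it. The share of Gzma went from 0.215% to 0.533% and that of Gzmm from 0.197% to 0.128% (exact permutation test, adjusted p = 0.0106 each), while those of Gzmf and Gzmg did not pass (exact permutation test, adjusted p = 0.881 and 0.463). These shares are per transcript length. Of the recovered fragments, with no correction for length, the Gzmb share fell by 3.91 percentage points in place of 5.91, and that of Gzmc rose by 1.88 in place of 2.90, of Gzmd by 0.84 in place of 1.20 and of Gzme by 1.04 in place of 1.58 (exact permutation test, adjusted p = 0.0106 each). Gzmb was the most abundant granzyme mRNA in every sample.

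**Figure D3:**
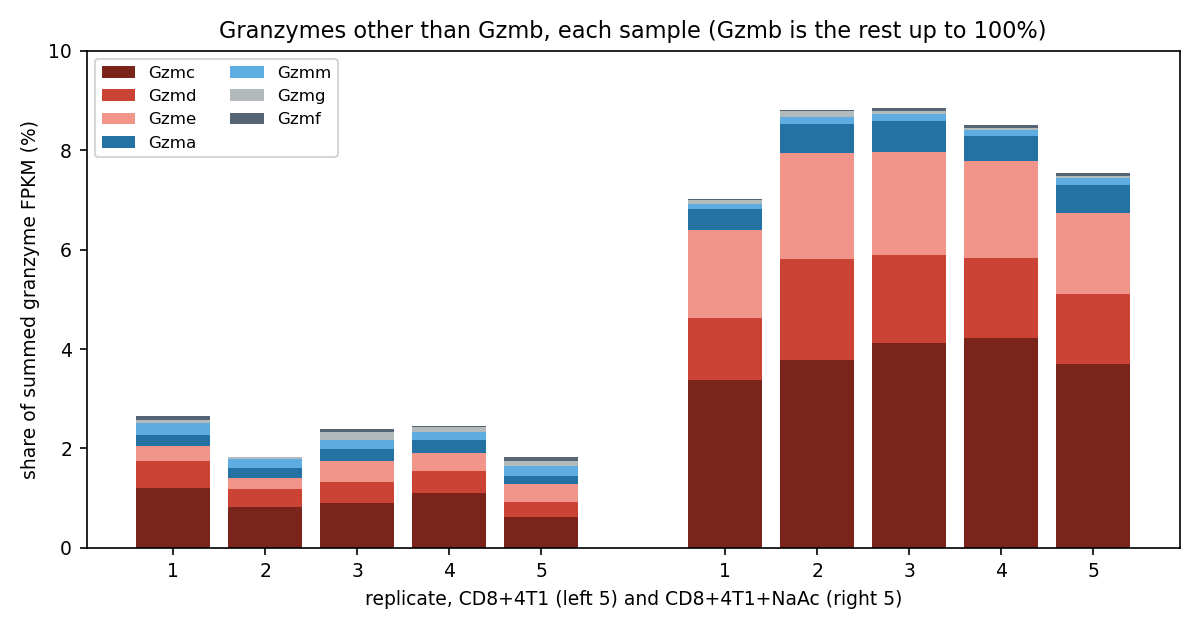
Share of each granzyme other than Gzmb in the summed granzyme FPKM, as stacked bars for every sample from 0 to 10%. Gzmc, Gzmd and Gzme together take 1.28% to 2.05% in the 5 CD8+4T1 samples on the left and 6.39% to 7.97% in the 5 CD8+4T1+NaAc samples on the right.

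The order of levels shifted in the same way. Without NaAc, Gzmb, Prf1 and Gzmc followed each other with no overlap between neighbors, and Gzmd, Gzme, Gzma and Gzmm came next with neighboring ranges that overlapped. With NaAc, Gzmc overlapped Prf1, Gzme and Gzmd came next with ranges that overlapped each other, and Gzma stood apart from both its neighbors. Gzmm, Gzmg and Gzmf formed the low end in that order, with overlap, and Gzmk was last in both groups.

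Between the groups, the sum of the tumor cell markers was higher with NaAc, as were the members that rose. Not every marker moved. Epcam was at 0.519 ± 0.229 and 0.699 ± 0.179 FPKM (limma adjusted p = 0.305), and Cldn7 at 0.649 ± 0.174 and 0.637 ± 0.111 FPKM (limma adjusted p = 0.994). In CD8+4T1+NaAc replicates 1 to 5 the epithelial and 4T1 genes summed to 110.2, 223.6, 134.2, 167.7 and 86.3 FPKM, against 10.7, 13.6, 11.6, 22.7 and 23.2 FPKM in CD8+4T1. Within the NaAc group the sample with the highest marker sum, replicate 2, was at 83.4 FPKM of Gzmc, 45.2 of Gzmd, 47.2 of Gzme and 12.7 of Gzma. The sample with the lowest marker sum, replicate 5, was at 88.8 FPKM of Gzmc, 33.5 of Gzmd, 39.5 of Gzme and 13 of Gzma. Replicate 5 had the lowest Gzme and the lowest sum of Gzmc, Gzmd and Gzme of the group (161.9 FPKM), and replicate 2 had the lowest Gzmc and the second highest Gzmd. Replicate 3, with a marker sum of 134.2 FPKM, had the highest sum of Gzmc, Gzmd and Gzme (212.7 FPKM). The 10 mast cell and basophil genes, of interest because mast cells express proteases of the same family, summed to between 4.22 and 5.63 FPKM without NaAc and between 7.08 and 10.8 FPKM with it, with Mcpt4, Cma1 and Ms4a2 under 0.5 FPKM in every sample. Most of that rise was Kit, a growth factor receptor gene, at 2.90 ± 0.371 and 6.12 ± 1.01 FPKM. Hdc, the other tested gene of the list, was at 0.672 ± 0.149 and 0.655 ± 0.105 FPKM (-0.02, limma adjusted p = 0.945). Cpa3, below the filter on low values, was at 0.438 ± 0.219 and 0.479 ± 0.219 FPKM. The tryptase genes Tpsab1 and Tpsb2 did not pass the filter on low values and were at 0.236 ± 0.145 and 0.680 ± 0.379 FPKM and at 0.166 ± 0.0692 and 0.520 ± 0.310 FPKM. Of 10 myeloid genes 4 were tested, and Lyz2, for lysozyme, was higher with NaAc (0.536 ± 0.270 and 1.12 ± 0.385 FPKM, 0.96 on the log2 scale, limma adjusted p = 0.0328). Cd68, which held most of the list's summed FPKM, was at 25.8 ± 2.97 and 22.8 ± 1.73 FPKM (-0.17, limma adjusted p = 0.133). Cd14 was at 3.21 ± 0.899 and 3.89 ± 1.01 FPKM (0.28, limma adjusted p = 0.332). The call of Lyz2 was lost in 6 of the 10 fits that left out a sample (limma adjusted p up to 0.0844). S100a8, a gene of neutrophils and monocytes, was at 0.398 ± 0.318 and 2.94 ± 1.13 FPKM and passed the filter only through the NaAc group, and Csf1r, Adgre1, Itgam, S100a9, C1qa and Ly6g stayed under 0.5 FPKM in every sample. The summed myeloid list spanned 25.3 to 35.5 FPKM without NaAc and 28.6 to 33.3 with it. The part of these other cells in the changes of the granzymes and of the lysosomal genes was not tested.

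**Figure D4:**
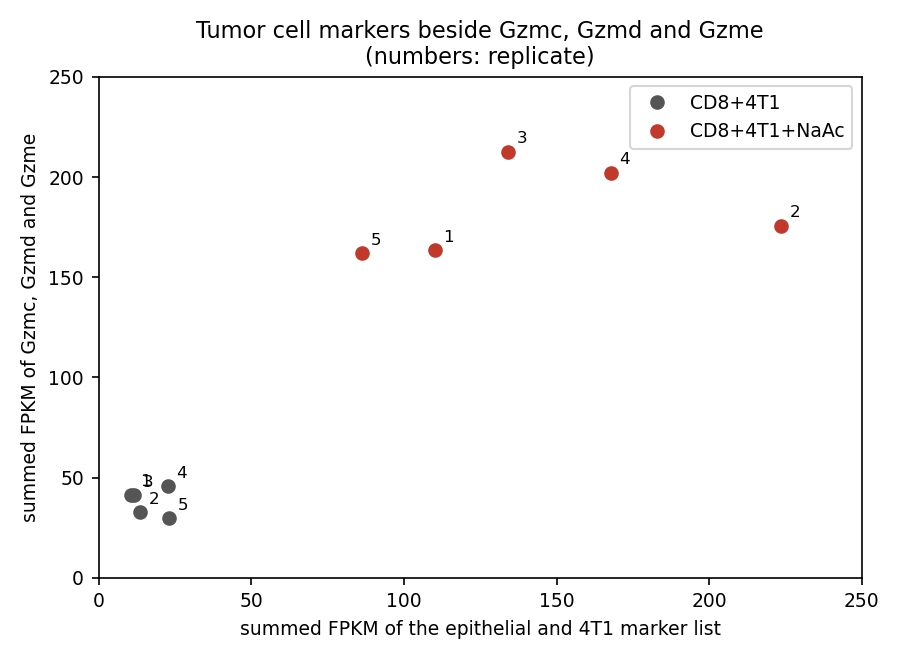
Summed FPKM of Gzmc, Gzmd and Gzme against the summed FPKM of 18 epithelial and 4T1 marker genes, with a point for each sample and its replicate number. The 5 CD8+4T1+NaAc samples lie between 86.3 and 223.6 on the marker axis and between 161.9 and 212.7 on the granzyme axis, and the 5 CD8+4T1 samples lie near the origin on both.

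Around the granzymes themselves, a list of 23 granule partner genes was read for the storage, activation, release and inhibition of granzymes. Of its 21 tested genes 9 rose and 6 fell. Ctsh, which is among the 9, passed the filter on low values only through the NaAc group. Of the other 20 genes 8 rose and 6 fell, beside 17.6% and 19.0% of all genes. The median log2 fold change of the 21 was 0.14 against -0.02 for all genes. Ctsh was kept in the counts of this list with another scaling or a sample left out. With rescaling to the same FPKM total the split was 13 higher and 1 lower, beside 31.2% and 8.83% of all genes, and with scaling to T cell markers it was the same 13 and 1 in number, beside 28.7% and 8.01%. Without CD8+4T1 replicate 4 the list had 9 higher and 3 lower, beside 2513 and 2649 of the 15710 genes tested. The sum of the tumor cell markers given above was higher in the NaAc samples, and the part of tumor cells in these counts was not tested. Srgn, the proteoglycan serglycin that holds granzymes in the granule, fell from 379.1 ± 29.3 to 231.1 ± 12.3 FPKM (-0.71 on the log2 scale, limma adjusted p = 3.26e-05). Among lysosomal proteases, Ctsl rose from 9.18 ± 0.896 to 33.4 ± 9.05 FPKM (1.82, limma adjusted p = 3.04e-05). Ctsb rose from 25.2 ± 2.37 to 35.9 ± 3.17 FPKM (0.51, limma adjusted p = 0.000639) and Ctsd from 65.4 ± 4.32 to 93.8 ± 10.6 FPKM (0.51, limma adjusted p = 0.000815). Ctsh was at 0.227 ± 0.116 and 0.804 ± 0.404 FPKM (1.39, limma adjusted p = 0.0254), and since it passed the filter on low values only through the NaAc group, nothing is read from its test, although it is counted among the 9 that rose. Ctsc, the protease that activates granzymes by removing their propeptide, fell by 0.30 on the log2 scale, and Cst7, an inhibitor of it, fell by 0.33 (limma adjusted p = 0.0260 and 0.0247). The call of Ctsc was lost in 6 of the 10 fits that left out a sample (limma adjusted p up to 0.0649), and that of Cst7 without CD8+4T1 replicate 3 or 4 (limma adjusted p = 0.0616 and 0.0571). Of the 6 lower calls in the list only that of Srgn held with rescaling to the same FPKM total or to T cell markers, where Ctsc was at -0.13 and -0.13 (limma adjusted p = 0.256 and 0.212) and Cst7 at -0.16 and -0.16 (limma adjusted p = 0.199 and 0.105).

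The list held 4 inhibitors of the serpin family, and differences between them were not tested. Serpinb9, the inhibitor that protects killer cells from their own granzyme B, was at 183.8 ± 11.4 and 196.0 ± 20.8 FPKM (change of 0.09 on the log2 scale, limma adjusted p = 0.420), and it passed at 0.27 with rescaling to the same FPKM total (limma adjusted p = 0.0208). Its relative Serpinb9b rose from 18.9 ± 0.933 to 46.9 ± 5.57 FPKM (1.30, limma adjusted p = 9.05e-06). Serpinb6b rose by 0.29 (limma adjusted p = 0.00959), and Serpinb6a was at 0.33 (limma adjusted p = 0.0556) and passed at 0.51 with rescaling to the same FPKM total (limma adjusted p = 0.00397). Serpinb6a also passed without CD8+4T1+NaAc replicate 1 (0.44, limma adjusted p = 0.00127). In the release machinery, Lamp1, a membrane protein of lysosomes and granules, rose by 0.46 and Nkg7, a granule protein of killer cells, fell by 0.23 on the log2 scale (limma adjusted p = 0.00616 and 0.0128). The call of Nkg7 did not hold with rescaling to the same FPKM total (-0.06, limma adjusted p = 0.460).

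Among 25 genes of transcription factors and cytokine receptors that act on killer genes, 5 rose and 7 fell, beside 17.6% and 19.0% of all genes, with a median log2 fold change of -0.07. After rescaling to the same FPKM total, 9 rose and 2 fell, beside 31.2% and 8.83% of all genes, and the 2 were Tbx21 and Irf4. Tbx21, for the factor T-bet, fell from 53.4 ± 2.62 to 35.8 ± 2.88 FPKM (-0.58, limma adjusted p = 7.55e-05), and Irf4, a factor induced by T cell receptor signals, fell from 105.1 ± 5.21 to 72.1 ± 6.95 FPKM (-0.55, limma adjusted p = 0.000163). Eomes, the relative of T-bet, rose from 9.46 ± 0.702 to 12.7 ± 0.971 FPKM (0.42, limma adjusted p = 0.000794), and Klf2, a factor of resting T cells, rose from 1.73 ± 0.429 to 4.00 ± 0.873 FPKM (1.17, limma adjusted p = 0.000798). Runx3, whose family binds the TGTGGT core, was at 44.1 ± 2.50 and 39.8 ± 12.1 FPKM (-0.19, limma adjusted p = 0.366). CD8+4T1+NaAc replicate 1 was its highest sample and the other 4 NaAc samples lay below every sample without NaAc. Runx3 passed when that replicate was left out (-0.35, limma adjusted p = 0.000248).

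Killing can also run through secreted or membrane-bound ligands. Of the 5 genes for these routes 1 passed on the deposited scale, beside 36.5% of all genes. Lta, which encodes lymphotoxin alpha, fell from 147.6 ± 13.4 to 59.5 ± 12.6 FPKM (-1.33, limma adjusted p = 3.84e-05). Ifng was at 480.9 ± 61.5 and 407.6 ± 107.2 FPKM (-0.27, limma adjusted p = 0.243) and Fasl at 8.90 ± 3.16 and 12.2 ± 2.13 FPKM (0.49, limma adjusted p = 0.0886). Tnf and Tnfsf10 were at 0.32 and 0.26 (limma adjusted p = 0.0777 and 0.195). Fasl passed without CD8+4T1 replicate 5 (0.68, limma adjusted p = 0.00647) and without CD8+4T1+NaAc replicate 1 (0.60, limma adjusted p = 0.0457). With rescaling to the same FPKM total 3 of these passed as higher, Fasl at 0.67, Tnf at 0.50 and Tnfsf10 at 0.43 (limma adjusted p = 0.0257, 0.00755 and 0.0334), beside 31.2% of all genes, and the same 3 passed with scaling to T cell markers (limma adjusted p = 0.0259, 0.0130 and 0.0414). Lta stayed lower under both.

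**Figure D5:**
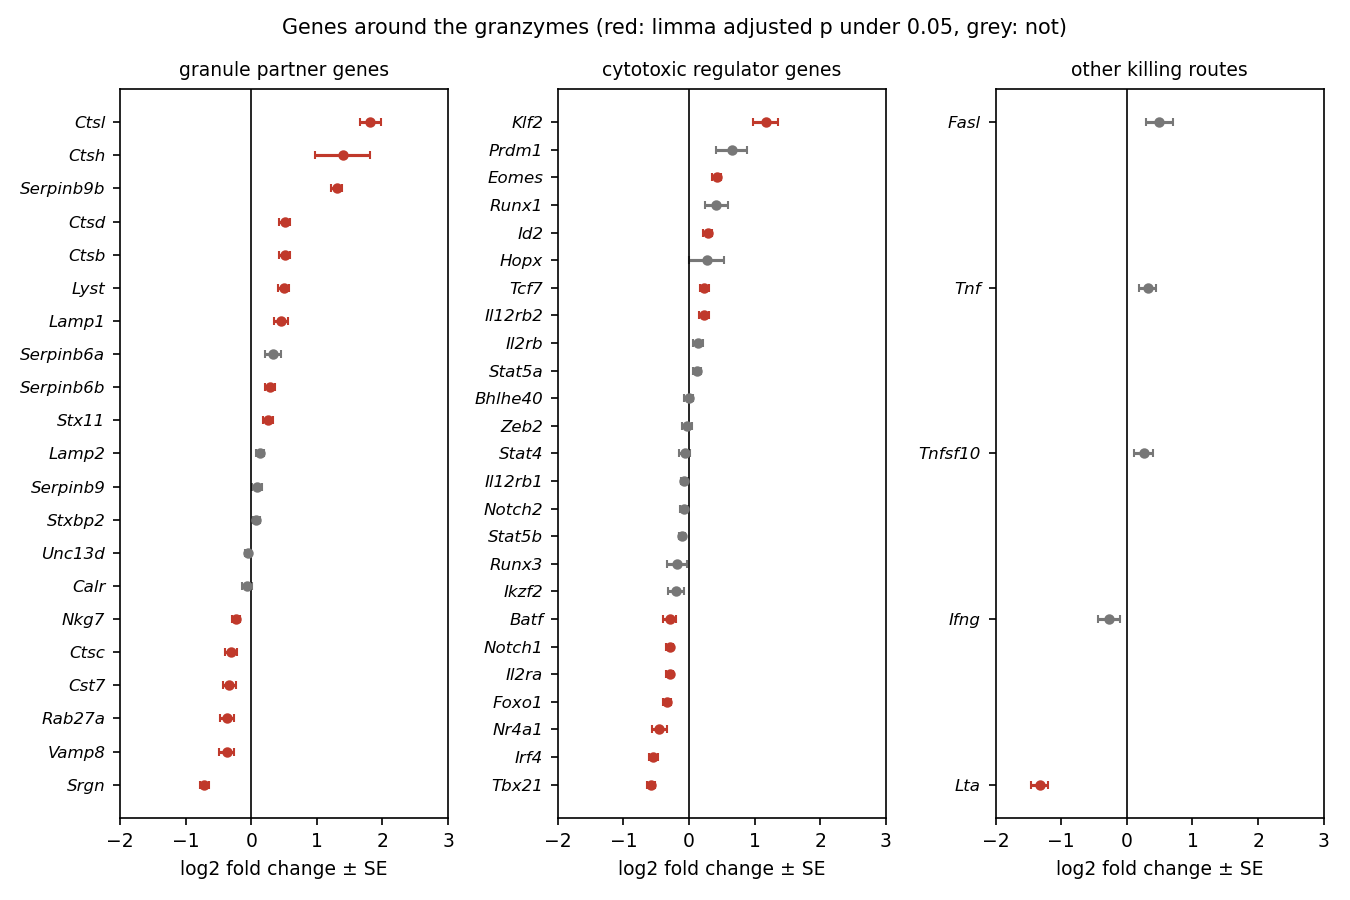
Log2 fold change with its standard error for granule partner genes, regulators of killer genes and other killing routes, sorted within each panel, with limma adjusted p under 0.05 in red. Ctsl, Ctsh, Serpinb9b and Klf2 lie above 1, Srgn, Tbx21 and Irf4 lie between -0.71 and -0.55, and Lta lies at -1.33. Ctsh passed the filter on low values only through the NaAc group, and nothing is read from its test.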

How the data were processed

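The deposited table gives FPKM per gene and sample with the gene length, a further deposited column of another kind. Per the submitters' processing notes the authors used fastp, HISAT2 2.0.5, StringTie 1.3.3b and featureCounts 1.5.0-p3, and the study's methods give DESeq2 for their own tests. Strand setting and genome build are not given in the sources used here. FPKM times length gave whole fragments, within 0.1, for 100% of the values, which supplied the depths; voom on these fragments called 5976 genes against 5742. FPKM was tested with limma 3.58.1 in R 4.3.3 (trend and robust moderation) on log2(FPKM + 0.1) on the genes whose mean reached 0.5 FPKM, so that fold changes of low genes are understated. Single values and pairs were tested with exact two-sided permutation tests (Python 3.11.15), and fitting was tested on simulated data. The named members were all 10, and genes of the partner, regulator and other killing route lists were named where they passed with an absolute log2 fold change over 0.5, and marker genes where they were near 0 or moved with a result; Cd8a, Cd3d, Cd4, Klrk1, Klri2, Tyrobp, Tpsab1, Tpsb2, Ctsc, Cst7, Serpinb9, Serpinb6a, Serpinb6b, Lamp1, Nkg7, Eomes, Runx3, Ifng, Fasl, Tnf and Tnfsf10 were named for their roles after their values were seen. Cd68, Cd14, Hdc, Cpa3, Zbtb7b, Foxp3, Cd40lg, Epcam and Cldn7 were also named after their values were seen. Members and gene lists were chosen with earlier results of these data known. The alternatives were another pseudocount, filter, scaling, moderation, replicate block, voom on recovered fragments, and leaving out samples. Promoter windows came from RefSeq GRCm38.p6 and transcripts from GENCODE M21.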

Additional observations from a re-analysis of the deposited data

Results flagged for a closer look

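Samples far from the other 4 of their group were looked for by Dixon's ratio, the distance from an extreme value to its neighbor as a share of the group's range, at its 95% limit. Among the members only Gzmb met this, with CD8+4T1 replicate 1 at 10.94 on the log2 FPKM scale and a ratio of 0.870. The same sample stood apart in its number of genes above 0 (ratio of 0.848) and in the log2 FPKM of Ctsc (0.781), Lta (0.714), Tnf (0.815) and Cd3d (0.718). CD8+4T1+NaAc replicate 1 stood apart in its number of genes above 0 (0.916) and in Runx3 (0.883), Cst7 (0.793), Lamp1 (0.786), Serpinb6a (0.783), Cd3d (0.721) and Ctsd (0.714). CD8+4T1+NaAc replicate 2 had the most fragments of scaling (0.747). In all 92 groups of 5 values were checked, where chance gives about 4.6, and these values share their samples. The partner genes and depths were added to this check after the data were seen.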

How the results depend on the processing

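The calls of Gzma, Gzmc, Gzmd and Gzme kept direction and side under every alternative run. When each replicate was left out in turn, 5 members passed every time, with log2 fold changes of 1.34 to 1.49 for Gzma, 2.06 to 2.28 for Gzmc, 1.99 to 2.15 for Gzmd, 2.52 to 2.75 for Gzme, -0.58 to -0.38 for Gzmm, 0.11 to 0.18 for Prf1, -0.0114 to 0.0775 for Gzmb, -0.23 to 0.29 for Gzmf and -0.53 to -0.04 for Gzmg. Likewise 11 to 16 granule partner genes, with Ctsh counted where it passed, and 10 to 15 regulators passed. In the same fits 4947 to 6965 of the 15710 genes tested passed. The counts of 16 and 15 came from the fit without CD8+4T1+NaAc replicate 1, the fit with 6965. Without replicate 1 of both groups Gzmb was at -0.0266. The share of Gzmf among granzymes, -0.0016 percentage points, was 0.0093 without replicate 1 of both groups and -0.0102 to 0.0050 with each replicate left out. Rescaling to the same FPKM total gave 0.21 for Gzmb, 0.32 for Prf1 and -0.33 for Gzmm, and scaling to T cell markers gave 0.21, 0.32 and -0.33. The cause was not tested. The replicate block gave 0.14 for Prf1 (limma adjusted p = 0.0473) and changed no other member's call. Over all genes tested, same-numbered samples did not deviate together (correlation of -0.028 to 0.069). Such a correlation cannot show whether the numbers pair samples. Replicate 1 had the fewest genes above 0 in both groups (22291 without NaAc and 20233 with it) and the lowest Cd3d in both. A mean of at least 5 FPKM left Gzmm, Gzmf and Gzmg untested. Gzmf stood on 6 to 29 fragments per library, Gzmg on 14 to 55 and Gzmk on at most 3.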

Other observations

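Among 10626 genes compared by their centred log2 FPKM over the 10 samples, Gzmd was the nearest to Gzmc, with a root mean square distance of 0.173, and Gzmc the nearest to Gzmd. The gene nearest to Gzma was Hspb1 at 0.143, which encodes a small heat shock protein, and the gene nearest to Gzme was Spp1 at 0.229, which encodes the secreted protein osteopontin. Such distances follow the difference between the groups and say nothing of shared control.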
